A study of Mus musculus with 6 samples.

Results

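Interferon-stimulated genes were examined in livers of mice overdosed with APAP (acetaminophen, 300 mg/kg, 12 hours) and of control mice given saline. The 9 genes, Ifit1, Ifit2, Ifit3, Isg15, Rsad2, Irf1, Irf7, Stat2 and Usp18, were taken by gene name from the 34745 genes of the expression table, and all 9 passed the filter on low counts. Mice of both groups were WT in genotype and had been fasted for 12 hours before the injection. The study's methods name male C57BL/6J mice aged 8 to 10 weeks, while the labels of these samples give no strain, sex or age. Of the 6 livers labelled, 3 per group, the table holds libraries of 2 APAP livers (APAP1 and APAP3) and 3 libraries named WT1, WT2 and WT3. Since the remaining columns carry the name of APAP, the WT libraries were read as saline controls, and every direction given here rests on that reading.

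Type I interferons bind a receptor made of IFNAR1 and IFNAR2, whose kinases JAK1 and TYK2 phosphorylate STAT2. STAT2 acts with IRF9 in a complex that binds the interferon-stimulated response element (ISRE) in target promoters and switches on a large set of antiviral genes. Interferon gamma acts through a different element, the gamma-activated site (GAS). In an injured liver, nucleic acids of dying cells are known triggers of interferon production, and hepatocytes, Kupffer cells and endothelial cells can all respond to interferon.

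Library totals were between 13378445 and 15976339 counts. The counts were scaled by TMM, a normalization for library composition, and are given as CPM (counts scaled to a common library size). The detection floor, set at 3 counts, lay between 0.176 and 0.269 CPM. The groups also differed in sex-linked genes. Xist, transcribed from the inactive X chromosome, measured 0.764 and 1.73 CPM after APAP and between 290 and 914 CPM with saline, and the Y-linked Ddx3y measured 79 and 61.7 CPM after APAP and at most 0.0668 CPM with saline. Treatment and sex-linked expression cannot be told apart in these 5 libraries, which holds for every difference below. The pattern of the WT libraries goes against the male mice named in the methods, and whether the controls came from another set of animals was not tested.

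The promoters of these genes are shown because promoters hold the elements through which interferon acts, so that they can be set beside the values of each gene. RefSeq promoter sequences (GRCm38.p6) were found for 8 of the 9 genes, in 10 windows of 250 bases before a transcription start, and none was found for Usp18. The ISRE core was searched on both strands as GAAANNGAAA, and GAS as TTCNNNGAA. The ISRE core was present in 5 of the 10 windows, those of Isg15, Rsad2, Ifit1, Ifit3 and Stat2, against 2.98% of all 32851 windows of this length. GAS was present in 2 windows, those of Irf1 and Ifit2, against 7.02% of all windows. Stretches of 80 bases around the ISRE matches and around the GAS of Irf1 follow, read 5′ to 3′ on the strand of the gene. Capitals mark the ISRE core, and in Irf1 the GAS. A match written as TTTC repeats lies on the opposite strand.
Rsad2 (chr12:26456528-26456607, minus strand): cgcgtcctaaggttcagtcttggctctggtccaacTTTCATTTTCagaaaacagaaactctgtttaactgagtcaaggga
Isg15 (chr4:156200846-156200925, minus strand): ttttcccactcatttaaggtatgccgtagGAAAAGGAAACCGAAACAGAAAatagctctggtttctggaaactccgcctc
Ifit1 (chr19:34640759-34640838, plus strand): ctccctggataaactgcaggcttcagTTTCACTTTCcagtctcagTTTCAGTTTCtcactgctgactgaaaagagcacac
Ifit3 (chr19:34583355-34583434, plus strand): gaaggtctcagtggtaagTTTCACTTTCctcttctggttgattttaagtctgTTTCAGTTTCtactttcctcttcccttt
Stat2 (chr10:128270248-128270327, plus strand): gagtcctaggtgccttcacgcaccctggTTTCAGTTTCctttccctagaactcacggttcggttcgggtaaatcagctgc
Irf1 (chr11:53769889-53769968, plus strand): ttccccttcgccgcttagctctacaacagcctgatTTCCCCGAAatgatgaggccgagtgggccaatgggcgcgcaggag
In Isg15 the 3 matches overlapped in a single run that started 78 bases before the transcription start. Rsad2 and Stat2 held 1 match each, 120 and 222 bases before the start. Ifit1 held 2 matches, 104 and 85 bases before the start, and Ifit3 held 2 matches, 156 and 122 bases before it. The window of Irf7 held no match to these letters, and the windows of Ifit2 and Irf1 held no ISRE core. A missing match says nothing about the factors that bind there.

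**Figure D1:**
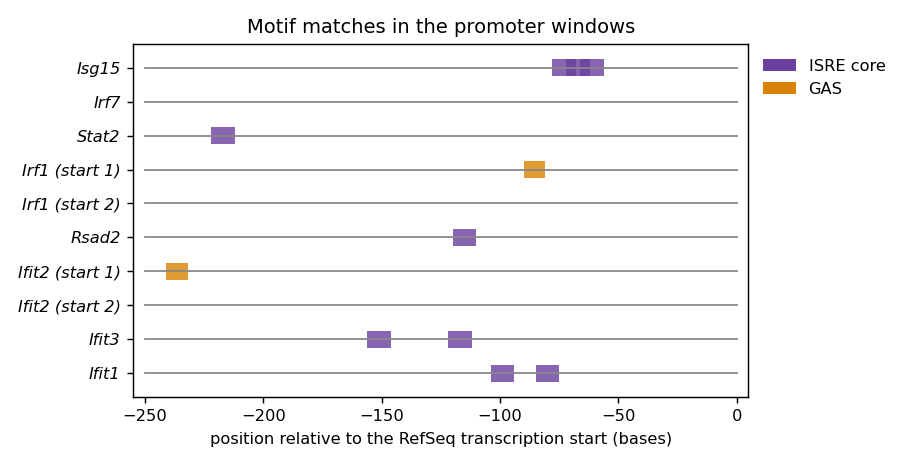
Matches to the ISRE core (purple) and to GAS (orange) in the 10 promoter windows, with the position in bases relative to the RefSeq transcription start on the x axis and 1 window per row. The ISRE core appears in 5 windows and GAS in 2, and the 3 matches of Isg15 start 78, 72 and 66 bases before the transcription start and overlap.

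APAP and saline livers were compared gene by gene with edgeR's quasi-likelihood test, adjusted over all 13734 genes tested. Of the 9 genes, Rsad2 was higher and Usp18 was lower with APAP at an adjusted p under 0.05, and the other 7 did not pass the test. Among all tested genes 3.7% were higher and 3.53% were lower at this threshold, so 1 gene in each direction is not a result about the 9 genes as a group. Their median log2 fold change was −0.29, against 0.03 for all tested genes, with 3 values above 0 and 6 below. The summed level of the 9 genes was 148 and 106 CPM with APAP and 128, 145 and 143 CPM with saline, and these ranges overlapped.

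Rsad2 encodes viperin, a radical SAM enzyme that makes a chain-terminating nucleotide against viral RNA synthesis. It is listed as ENSMUSG00000020641 on chromosome 12 of GRCm38 from 26442753 to 26456452 on the minus strand. Rsad2 reached 37.8 CPM in APAP1 and 15.2 CPM in APAP3, against 9.05, 6.18 and 6.81 CPM in WT1, WT2 and WT3. Both APAP libraries were above all saline libraries, and APAP1 was well above APAP3. The mean was 26.5 ± 16 CPM (SD, n = 2) with APAP and 7.35 ± 1.51 CPM (SD, n = 3) with saline, a 3.61-fold higher mean. The log2 fold change was 1.85 (SE 0.40, 95% interval 0.91 to 2.80, edgeR quasi-likelihood adjusted p = 0.0413). Without APAP1 it was 1.05 and the adjusted p was 0.239. Without WT1, WT2 or WT3 it was 2.05, 1.74 and 1.81, with adjusted p of 0.0783, 0.153 and 0.083, so the call was kept in 1 of the 5 fits that left out a library (without APAP3, 2.36, edgeR adjusted p = 0.0193). In bulk liver RNA, more cells that express a gene and more RNA per cell cannot be told apart.

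Usp18 encodes a protease that removes ISG15 from proteins and also binds IFNAR2 to damp the receptor. It is listed as ENSMUSG00000030107 on chromosome 6 from 121245906 to 121270917 on the plus strand. Usp18 had 3.11 CPM in APAP1 and 3.83 CPM in APAP3, against 12.2, 8.97 and 17 CPM in WT1, WT2 and WT3. The groups did not overlap, and the highest APAP value was below the lowest saline value. The mean was 3.47 ± 0.508 CPM (SD, n = 2) with APAP, 27.3% of the 12.7 ± 4.03 CPM (SD, n = 3) with saline. The log2 fold change was −1.87 (SE 0.36, 95% interval −2.72 to −1.02, edgeR quasi-likelihood adjusted p = 0.0313). It lay between −2.07 and −1.60 with any 1 library left out. In the fits without APAP1, APAP3, WT1 and WT2 the adjusted p was 0.181, 0.0941, 0.0675 and 0.0646, while without WT3 it was 0.0485. An antisense gene that overlaps Usp18 by 15715 bases had 0 to 4 counts per library, and 4.47% of the 50-base words of the Usp18 transcript were shared with it.

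**Figure D2:**
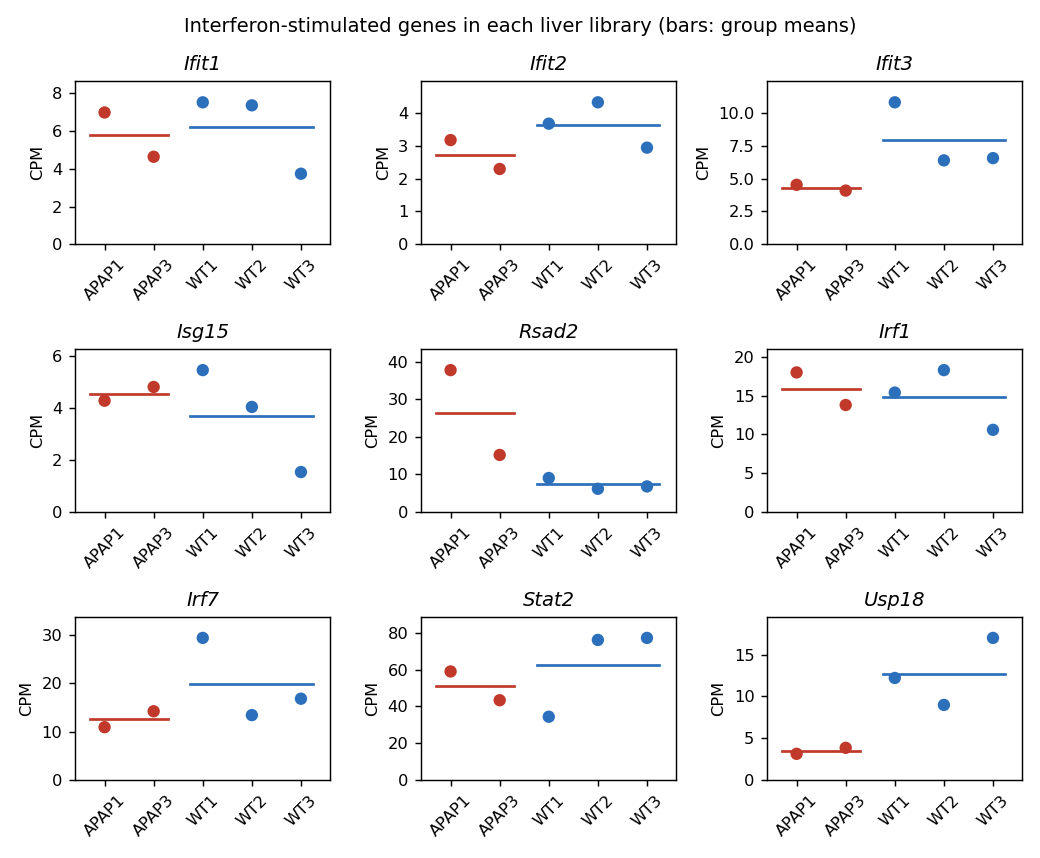
Level of each of the 9 genes in CPM (y axis, from 0) in every library (x axis), with APAP libraries in red, saline libraries in blue and bars at the group means. Rsad2 is higher in both APAP libraries than in the 3 saline libraries, Usp18 and Ifit3 are lower in both, and the other 6 genes overlap between the groups.

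The 3 Ifit genes encode tetratricopeptide repeat proteins that bind foreign RNA or partner with each other. They lie in a cluster on chromosome 19, Ifit2 from 34550694 to 34576419, Ifit3 from 34583531 to 34588731 and Ifit1 from 34640871 to 34650009, all on the plus strand. Ifit1 measured 6.99 and 4.64 CPM after APAP and 7.53, 7.37 and 3.74 CPM after saline. The APAP values lay within the saline range, and the log2 fold change was −0.09 (95% interval −1.05 to 0.87, edgeR adjusted p = 0.916). Ifit2 measured 3.17 and 2.29 CPM after APAP and 3.67, 4.32 and 2.94 CPM after saline, an overlap of the groups, with a log2 fold change of −0.41 (95% interval −1.31 to 0.49, edgeR adjusted p = 0.551). Ifit3 measured 4.52 and 4.08 CPM after APAP and 10.8, 6.38 and 6.55 CPM after saline. Both APAP values of Ifit3 were below all saline values, at 54.3% of the saline mean. Its log2 fold change of −0.88 (95% interval −1.71 to −0.05) had an unadjusted P of 0.0414 and did not pass the test after adjustment (edgeR adjusted p = 0.181). Of the 50-base words of the Ifit3 transcript, 51.2% also occur in its neighbour Ifit3b, so reads may have been split between them. Ifit3b itself measured 1.12 and 1.67 CPM after APAP and 2.33, 1.66 and 1.54 CPM after saline (edgeR adjusted p = 0.667), and these values overlapped.

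Isg15 encodes a ubiquitin-like protein that is attached to other proteins or secreted. It lies on chromosome 4 from 156199424 to 156200818 on the minus strand. Isg15 measured 4.29 and 4.82 CPM after APAP and 5.47, 4.05 and 1.54 CPM after saline. The saline range enclosed the APAP values, and WT3 was the lowest library. The log2 fold change was 0.31 (95% interval −0.93 to 1.56, edgeR adjusted p = 0.76), and it was −0.06 without WT3. The interval spans both directions widely.

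Among the transcription factors, Stat2 is the subunit of the ISRE-binding complex that brings its activation domain. It lies on chromosome 10 from 128270576 to 128292849. Stat2 measured 59.1 and 43.4 CPM after APAP and 34.4, 76.3 and 77.4 CPM after saline, and the spread within the saline group was wider than the distance between the group means. WT1 was lowest of all libraries for Stat2 and highest of all for Irf7. The log2 fold change of Stat2 was −0.29 (95% interval −1.19 to 0.60, edgeR adjusted p = 0.683). Irf7, the factor that amplifies interferon alpha production, lies on chromosome 7 from 141262706 to 141266481. Irf7 measured 10.9 and 14.2 CPM after APAP and 29.4, 13.4 and 16.8 CPM after saline. APAP3 lay above WT2, so the groups overlapped, and the log2 fold change was −0.66 (95% interval −1.53 to 0.20, edgeR adjusted p = 0.318).

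Irf1 is a transcription factor that is itself induced by interferon gamma through its GAS, and also by NF-κB. It lies on chromosome 11 from 53770014 to 53778374. Irf1 measured 18 and 13.8 CPM after APAP and 15.4, 18.3 and 10.6 CPM after saline. Both APAP values fell within the saline range, with a log2 fold change of 0.11 (95% interval −0.58 to 0.79, edgeR adjusted p = 0.862).

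**Figure D3:**
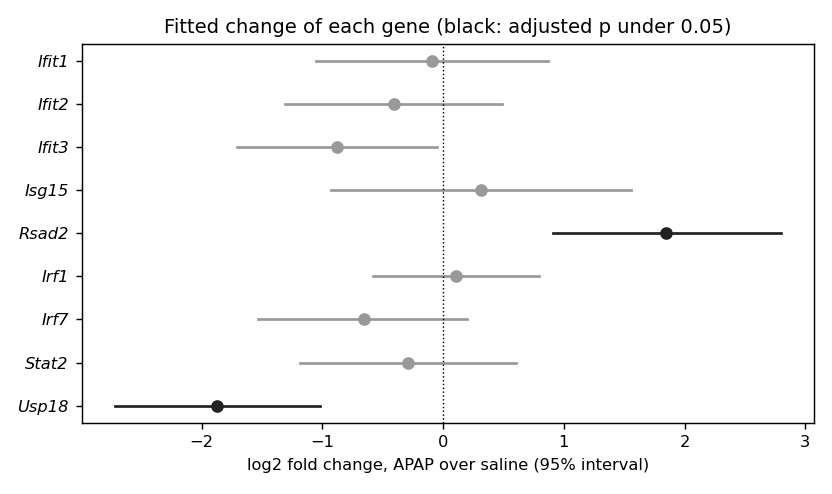
Fitted log2 fold change of APAP over saline (x axis) with its 95% interval for each of the 9 genes, black where the adjusted p was under 0.05. Rsad2 at 1.85 and Usp18 at −1.87 lie on opposite sides of 0, the interval of Ifit3 ends at −0.05, and the other 6 intervals include 0.

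By the study's thresholds, an unadjusted P under 0.05 with a 1.5-fold change or more, Rsad2 was higher and Usp18 and Ifit3 were lower. Among all tested genes 12.3% were higher and 11.2% lower by these thresholds. APAP and saline libraries were fully separated for 3 of the 9 genes, against 44.1% of all tested genes. With scaling to library size alone, the median log2 fold change of all tested genes moved from 0.03 to 0.42 and that of the 9 genes from −0.29 to 0.08, while the share of called genes that were higher went from 51.2% to 77.8%. The log2 fold changes of Ifit1 and Stat2 then turned to 0.33 and 0.08, which is below the median of all genes, and that of Usp18 was −1.48 (edgeR adjusted p = 0.0553).

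The contrast between Rsad2 and Usp18 does not depend on scaling when both are read in the same library. This ratio was chosen after the values of the genes were seen and is a description. The libraries APAP1 and APAP3 held 644 and 246 counts of Rsad2 and 53 and 62 counts of Usp18, or 12.2 and 3.97 counts of Rsad2 per count of Usp18. In WT1, WT2 and WT3 the counts of Rsad2 were 101, 93 and 102 and those of Usp18 were 136, 135 and 254, ratios of 0.743, 0.689 and 0.402. Rsad2 thus exceeded Usp18 in both APAP libraries and was below it in the 3 saline libraries. Set against Ifit1, whose APAP values lay within the saline range, Rsad2 had ratios of 5.41 and 3.28 with APAP and of 1.20, 0.838 and 1.82 with saline.

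Levels were compared between genes as RPKM, which divides the CPM by the exon length of the gene in kilobases. In saline livers the order by mean level was Stat2 (10.6 ± 4.13 RPKM), Irf7 (5.27 ± 2.23 RPKM), Isg15 (4.87 ± 2.63 RPKM), Usp18 (4.56 ± 1.44 RPKM), Ifit3 (4.54 ± 1.45 RPKM), Irf1 (3.71 ± 0.988 RPKM), Ifit1 (2.34 ± 0.807 RPKM), Rsad2 (1.70 ± 0.348 RPKM) and Ifit2 (0.928 ± 0.176 RPKM; SD, n = 3 for each). With the longest coding transcript as the length this order changed, since Irf7, Usp18 and Irf1 then had 8.89, 7.18 and 6.91 RPKM and Isg15 and Ifit3 stayed at 4.87 and 4.54 RPKM, so the order and ranks hold for exon lengths alone. By exon length, neighbours in this order overlapped between their saline libraries except for Rsad2 and Ifit2, whose libraries lay at 1.43 RPKM or more and at 1.10 RPKM or less. Rsad2 ranked 8, 8 and 7 of the 9 genes in WT1, WT2 and WT3, but 2 and 4 in APAP1 and APAP3, where it reached 8.73 and 3.51 RPKM. Usp18 ranked 5, 6 and 2 in the saline libraries and 8 in both APAP libraries. Stat2 was the highest of the 9 genes in every library except WT1, and Ifit2 was the lowest in all 5 libraries.

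**Figure D4:**
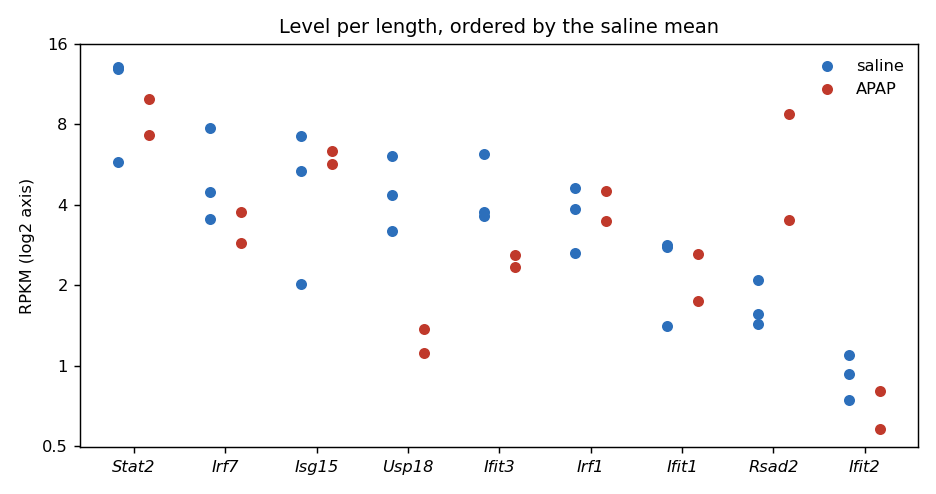
Level per exon length (RPKM, y axis with a log2 scale) of the 9 genes, ordered by their saline mean, with 1 point per library in blue for saline and red for APAP. Rsad2 lies near the low end in saline livers and at 8.73 and 3.51 RPKM with APAP, while Usp18 lies at 1.12 and 1.37 RPKM with APAP and above 3 RPKM with saline.

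The interferons themselves were almost undetected. Of 21 ligand genes, which cover interferon alpha, beta, epsilon, kappa, zeta, gamma and lambda, 20 had 0 counts in all 5 libraries, where a level of up to 0.269 CPM cannot be told from 0. The exception was Ifnk, interferon kappa, with 8 and 12 counts in APAP1 and APAP3 and 0 in the saline libraries, a mean at least 2.25-fold higher with APAP when set against the highest floor of 3 counts in a saline library. Ifnk did not pass the filter on low counts. With no filter beyond 1 count it had an edgeR adjusted p of 0.0722. It lies entirely inside Mob3b on the opposite strand, which had 384 to 544 counts per library, and without a stated strand setting their reads cannot be assigned with certainty.

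Receptors and transducers were detected in all libraries except for Ifnlr1, which was at 0 in WT1. The adjusted test of edgeR was passed by 0 of the 11 tested genes, against 3.7% higher and 3.53% lower among all tested genes. Higher by the study's thresholds was 1, given last, against 12.3% of all tested genes. Ifnar1 measured 33.5 and 37 CPM after APAP and 36.5, 36.2 and 28.2 CPM after saline, with overlapping groups (log2 fold change 0.07, edgeR adjusted p = 0.878). Ifnar2 was lower in both APAP libraries, at 33.7 and 37.5 CPM against 65.8, 45.4 and 45.2 CPM, with a log2 fold change of −0.55 that did not pass the test (edgeR adjusted p = 0.22). In the other direction, Ifngr1, Ifngr2 and Il10rb, chains of the interferon gamma and lambda receptors, had both APAP values above every saline value, with log2 fold changes of 0.57, 0.49 and 0.57 that did not pass the test. Of the 11 genes 4 were separated upwards and 2 downwards, against 44.1% of all tested genes separated in either direction. Irf9, the DNA-binding subunit of the complex, overlapped between the groups, at 22.9 and 30.4 CPM against 29.5, 29.6 and 31.6 CPM (edgeR adjusted p = 0.645). Ifnlr1, the receptor chain specific to interferon lambda, was the gene that met the study's thresholds, at 1.65 and 0.68 CPM with APAP and at most 0.334 CPM with saline (log2 fold change 2.42, edgeR adjusted p = 0.175). Its saline counts were 0, 4 and 5, near the floor.

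Of 16 tested genes of nucleic acid sensing, 1 was higher and 0 were lower by the adjusted test, against 3.7% and 3.53% of all tested genes. By the study's thresholds 4 were higher and 1 was lower, against 12.3% and 11.2%. The gene that passed the adjusted test was Ikbke, an IKK-related kinase that, like TBK1, phosphorylates IRF3 and IRF7. Ikbke measured 28.2 and 28.9 CPM after APAP and 11.4, 12.6 and 10.2 CPM after saline. The groups were far apart relative to their spread, with a log2 fold change of 1.33 (SE 0.20, edgeR adjusted p = 0.015), which stayed between 1.25 and 1.41 with any 1 library left out. Its adjusted p was above 0.05 without APAP1, APAP3 or WT2 (0.0933, 0.0685 and 0.0723). The others past the study's thresholds, named after their values were seen, were the sensors and adaptors Tmem173 (1.04), Tlr4 (1.27) and Ticam1 (0.62), higher, and Mavs (log2 fold change −0.63), lower. The median of the list was 0.31, with values from −0.63 to 1.33.

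The other antiviral effectors went in both directions. Of 39 tested genes, 0 were higher and 2 were lower by the adjusted test of edgeR, against 3.7% and 3.53% of all tested genes. The thresholds of the study gave 2 higher and 4 lower, against 12.3% and 11.2% of all tested genes. The median log2 fold change was 0.02, with 20 genes above 0 and 19 below. Bst2, tetherin, which holds budding virus at the membrane, fell from 142, 96.1 and 82.3 CPM in the saline libraries to 33.1 and 41.7 CPM with APAP. The groups were clearly separated, with a log2 fold change of −1.51 (SE 0.30, edgeR adjusted p = 0.0344). Ifi27 fell from 45.2, 43.2 and 45.1 CPM in the saline libraries to 17.6 and 24.8 CPM with APAP, a log2 fold change of −1.07 (SE 0.22, edgeR adjusted p = 0.0385). With 1 library left out, the adjusted p of Bst2 was above 0.05 without APAP1, APAP3 or WT2 (0.214, 0.104 and 0.103), and that of Ifi27 was between 0.0593 and 0.24 in all 5 fits.

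A few other effectors were singled out after their values were seen. Cmpk2 encodes a mitochondrial nucleotide kinase that supplies the substrate of viperin. Unlike Rsad2 it was not higher, at 5.99 and 2.66 CPM with APAP against 11.9, 6.18 and 5.81 CPM with saline (log2 fold change −0.87, 95% interval −2.04 to 0.29, edgeR adjusted p = 0.328). Oasl1, a relative of the oligoadenylate synthetases, measured 12.4 and 15.7 CPM after APAP and 6.72, 5.31 and 3.21 CPM after saline, with a log2 fold change of 1.47 that missed the threshold (edgeR adjusted p = 0.0546). Its groups did not overlap. Its relatives Oas1a, Oas1g, Oas2, Oas3 and Oasl2 had log2 fold changes of 0.35, 0.21, 0.72, −0.21 and 0.71, and the dynamin-like GTPases Mx1 and Mx2 had 0.87 and −0.12, none past the test. Parp9 and Dtx3l, which encode a partnered ADP-ribosyltransferase and ubiquitin ligase, were lower by the study's thresholds (log2 fold changes −0.71 and −0.65, edgeR adjusted p = 0.15 and 0.158), and Ifi30, a lysosomal thiol reductase, was higher (log2 fold change 0.60).

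Of the 3 enzymes that conjugate ISG15, 0 passed the adjusted test of edgeR, where 3.7% of all tested genes were higher and 3.53% lower. Lower by the study's thresholds were 2 of them, against 11.2% of all tested genes. Ube2l6, the conjugating enzyme, measured 12.3 and 14.2 CPM after APAP and 29.9, 21.7 and 22.4 CPM after saline (log2 fold change −0.90, edgeR adjusted p = 0.07). Herc6, a mouse ligase for ISG15, measured 7.40 and 7.29 CPM after APAP and 12, 13.8 and 13.3 CPM after saline (log2 fold change −0.83, edgeR adjusted p = 0.079). Uba7, the activating enzyme, overlapped between the groups, at 8.05 and 4.57 CPM against 6.63, 9.77 and 6.28 CPM. Ube2l6 and Herc6 were below all saline values in both APAP libraries, a separation that 44.1% of all tested genes showed in one direction or the other.

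Of 7 tested inhibitors of interferon signaling, 1 was higher and 0 were lower by the adjusted test, against 3.7% and 3.53% of all tested genes. By the study's thresholds 1 was higher and 1 lower, against 12.3% and 11.2% of all tested genes. The lower gene was Trim24, named after its values were seen (log2 fold change −0.76, edgeR adjusted p = 0.132). The gene that was higher was Socs3, a suppressor of cytokine signaling that is best known for its induction by interleukin 6. Socs3 measured 38 and 33.7 CPM after APAP and 7.35, 4.78 and 14.1 CPM after saline. The APAP values were more than double the highest saline value, with a log2 fold change of 2.03 (SE 0.42, edgeR adjusted p = 0.0374). Without WT3 it was 2.57, and without WT2 it was 1.73 with an adjusted p of 0.0953. The adjusted p was also above 0.05 without APAP1, APAP3 or WT1 (0.167, 0.0966 and 0.0971). Socs1, the suppressor induced by interferons, had at most 0.538 CPM in any library and was not tested.

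Of 23 tested genes of the interferon gamma program, 0 were higher and 1 was lower by the adjusted test, where 3.53% of all tested genes were lower, so that this count is near the background. By the study's thresholds 0 were higher and 8 lower, against 12.3% and 11.2% of all tested genes. The median log2 fold change was −0.46, with 19 genes below 0 and 4 above. Cxcl9, a chemokine for T cells that depends on interferon gamma, fell from 19.4, 18.1 and 9.49 CPM in the saline libraries to 1.41 and 4.14 CPM with APAP. The groups did not overlap, and the log2 fold change was −2.49 (SE 0.55, edgeR adjusted p = 0.0435). Without APAP1, APAP3 and WT3 it was −1.91, −3.47 and −2.76, and the adjusted p was above 0.05 without APAP1, WT1 or WT2 (0.172, 0.098 and 0.143). Cxcl10, a related chemokine also induced by type I interferon, overlapped between the groups, at 3.41 and 3.83 CPM against 4.21, 1.79 and 1.20 CPM (log2 fold change 0.61, edgeR adjusted p = 0.559). Irgm2 and Igtp, immunity-related GTPases singled out after their values were seen, had log2 fold changes of −1.28 and −1.32 that missed the threshold (edgeR adjusted p = 0.091 and 0.054). They overlap on the plus strand of chromosome 11, Igtp from 58199556 to 58207591 and Irgm2 from 58199618 to 58222779. Reads may have been shared between them, so their values may not be separate observations.

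**Figure D5:**
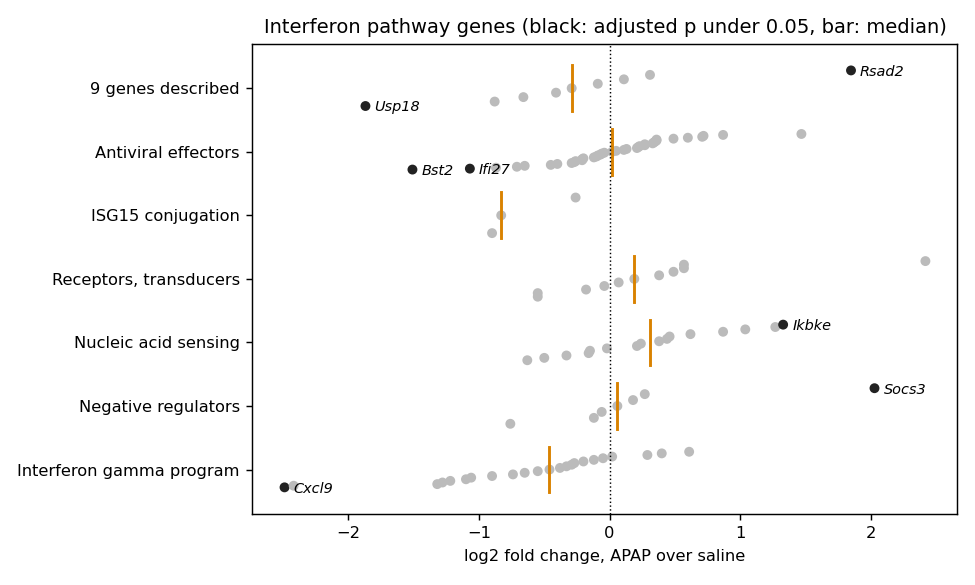
Log2 fold change of APAP over saline (x axis) for every tested gene of the interferon lists, 1 row per list, with genes under an adjusted p of 0.05 in black and the median of the list as an orange bar. Called genes lie on both sides of 0, with Ikbke and Socs3 higher and Bst2, Ifi27 and Cxcl9 lower, and the medians range from −0.83 to 0.31.

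Of the marker lists of other cells, the neutrophil list moved as a whole with the groups, and its part in the values above was not tested. The counts below stand beside 3.7% of all tested genes higher and 3.53% lower by the adjusted test. By the study's thresholds these shares were 12.3% and 11.2%. All 6 tested neutrophil markers were higher with APAP, and the 7 listed had a summed level of 111 and 73.1 CPM with APAP against 4.57 to 7.82 CPM with saline, S100a9 being the most abundant. Of 7 monocyte markers 3 were higher (Chil3, F13a1 and Ccr2) and 4 did not pass the adjusted test of edgeR, while 4 were higher by the study's thresholds. The list summed to 99.1 and 156 CPM against 75.1 to 110 CPM. Its most abundant gene, Lyz2, overlapped between the groups, at 50.2 and 103 CPM against 98.5, 72.3 and 64.8 CPM (log2 fold change −0.04). Of 7 Kupffer cell markers 0 passed the adjusted test of edgeR, and the list summed to 217 and 440 CPM against 222 to 306 CPM. Its log2 fold changes went both ways, 3 above 0 and 4 below, with a median of −0.06. Higher by the study's thresholds was 1, Marco, named after its values were seen. Marco measured 56.7 and 123 CPM after APAP and 30.9, 7.51 and 10.1 CPM after saline (log2 fold change 2.49, edgeR adjusted p = 0.0625). Of 5 tested T and NK cell markers 0 passed, and 2 were lower by the study's thresholds. Log2 fold changes were below 0 for 4 of the 5 and above 0 for 1. The list summed to 4 and 3.46 CPM against 6.51 to 8.60 CPM. Ncr1, a marker of NK cells in this list, was not tested. It was at 0 in both APAP libraries and at 0.200 to 0.465 CPM with saline, from 4, 7 and 3 counts, near the floor. Of 6 plasmacytoid dendritic cell markers 2 could be tested and 0 passed by either threshold, and the list summed to 18.7 and 23 CPM against 4.57 to 29.9 CPM. In every library except WT3 most of that sum came from Tcf4, which other cells also express (18.2 and 17.3 CPM against 4.39, 17 and 12.3 CPM). In WT3 Tcf4 gave 12.3 of the 29.9 CPM. Siglech, specific to these cells, had 0 and 1 counts after APAP and 2, 5 and 2 counts with saline. All libraries but WT2 were thus below the floor of 3 counts for Siglech, where a level cannot be told from 0. The 7 hepatocyte markers, led by albumin, summed to 78400 and 124000 CPM with APAP and to 124000, 150000 and 178000 CPM with saline, and 0 passed the adjusted test (2 were lower by the study's thresholds). The sinusoidal endothelial list summed to 119 and 192 CPM against 139 to 228 CPM, the stellate list to 331 and 452 CPM against 447 to 546 CPM and the B cell list to 3.41 and 3.83 CPM against 2.07 to 7.44 CPM, with 0 genes past the adjusted test in each (1 higher and 1 lower, 1 lower and 0 by the study's thresholds).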

How the data were processed

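Total RNA of mouse livers was sequenced on an Illumina NovaSeq instrument. The deposited values used are raw counts, not normalized, made by the authors after alignment with HISAT2; versions, annotation and strand setting are not given in the sources used here. The submitters' processing notes name GRCm38, and coordinates are those of the deposited table. Their 5 columns of FPKM were not used. APAP replicate 2 was not analysed here. The study's methods speak of individual biological repeats in general, but the labels tie no library to a mouse, so p-values measure the spread between libraries. No libraries were duplicates, since a chi-square of their counts divided by its degrees of freedom was 44.1 to 93.7 within groups.

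The fit used edgeR 4.0.16 in R 4.3.3 (filterByExpr, minimum count 10 and total 15; TMM; glmQLFit and glmQLFTest; Benjamini-Hochberg over 13734 genes), and the procedure was checked on simulated counts. Alternatives were DESeq2 1.42.0, the exact and likelihood ratio tests of edgeR, other scalings and filters, the study's thresholds and each library left out. Exon lengths and 50-base words came from GENCODE M21, in which 34267 of the 34745 identifiers were found. Floors cover counting error only.

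The genes and lists were chosen with earlier results of these data known. Named from the lists were genes under an adjusted p of 0.05, detected ligands, receptors and transducers, abundant markers, and further genes where the text says so; 1 listed gene is not reported here. The ratio of Rsad2 to Usp18 was added later. Python 3.11.15 was used for sequences and plots.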

Additional observations from a re-analysis of the deposited data

How the results depend on the processing

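No paired analysis was possible because the columns WT1 to WT3 carry no link to the numbered saline samples, and no pairs are named. Such a link would not have made pairs either, since the labels tie no APAP liver to a saline liver. The study's methods name an unpaired test for comparisons of 2 groups. The log2 fold changes of Rsad2 (1.05 to 2.36) and of Usp18 (−2.07 to −1.48) kept their sign in all 13 refits, and their adjusted p was under 0.05 in 9 and 8 of them. Scaling by library size alone turned Ifit1 to 0.33 and Stat2 to 0.08, left 1 of the 2 called genes and moved the median of the 9 genes to 0.08. With each library left out in turn, Ifit1 ranged from −0.42 to 0.16, Irf1 from −0.10 to 0.29 and Isg15 from −0.06 to 0.71, so their sign turned in 3, 2 and 1 of these fits. With 1 library left out, 0 or 1 of the 9 genes were called, against 2, the genes called over all tested fell from 993 to between 165 and 922, and those in the interferon lists went from 5 to between 0 and 6. A library alone in its group was taken to vary like the other group. The likelihood ratio test, the exact test, DESeq2 and the study's thresholds called 1835, 1776, 2093 and 3228 genes in all and 10, 10, 11 and 24 in the interferon lists, and no filter beyond 1 count called 8 there. The causes were not tested. With the length of the longest coding transcript the saline levels of Irf7, Usp18 and Irf1 were 8.89, 7.18 and 6.91 RPKM, which puts Usp18 and Irf1 above Isg15 and Ifit3. With 2 libraries in a group the printed intervals are wide, and the smallest detectable change was not computed. These intervals are not adjusted over all tested genes, so a gene whose interval leaves out 0 can still fail the adjusted test. Ifit3, at −0.88 with an interval of −1.71 to −0.05, did not pass it (edgeR adjusted p = 0.181).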

Other observations

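Other genes with the ISRE core in a RefSeq promoter window were read as a description. Of 325 such genes tested, the 9 genes left out, 10 were higher (3.08%) and 18 lower (5.54%) with APAP at an adjusted p under 0.05 from edgeR, against 3.7% and 3.53% of all tested genes. Their median log2 fold change was 0.02, against 0.03 for all.

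The mean profile of the 9 genes, as log2 CPM centred on each gene, was nearly flat, at 0.03 and −0.23 in APAP1 and APAP3 and at 0.26, 0.08 and −0.14 in WT1, WT2 and WT3. The 5 tested genes closest to it, by root mean square difference over the 5 libraries, were Tmppe (0.0344), 3110053B16Rik (0.0439), Mrps18a (0.0443), Zfp93 (0.0455) and Mrpl13 (0.0457). Of the 9 genes, Rsad2 (0.96) and Usp18 (0.849) lay furthest from their own mean profile, and Ifit2 (0.163) lay closest.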
